A study of Homo sapiens with 12 samples.

Results

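EHD, RAB11 and other endocytic recycling genes were followed through 6 groups of PC-3 cells, a human prostate cancer cell line. The 10 genes were EHD1, EHD2, EHD3, EHD4, RAB11A, RAB11B, RAB4A, ARF1, AP2A1 and STXBP2. They were found through the RefSeq transcript that the array annotation gives for each probe, and each was read by 1 probe, present as 1 spot per array. Tests covered 25471 rows, of which 18857 carried a gene symbol and the rest only the identifier of the array annotation. All rows are called genes below. All 10 passed the filter on dim probes and were well above background in all 12 channels. EHD2 was chosen by its rise between control and PIM1 cells, and RAB11B, ARF1, AP2A1 and STXBP2 by their difference between PIM1 + WT and PIM1 + MM cells. For these 5 genes, values in comparisons that use the samples by which they were chosen are given as a description, with no test. The other 5 genes joined by gene family.

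Endocytic recycling returns internalized membrane and receptors to the cell surface. Rab GTPases give recycling vesicles their identity, with RAB4A on the fast route from early endosomes and RAB11A and RAB11B on the slower route through the recycling compartment. EHD proteins are membrane-remodelling ATPases that bind and shape endosomal tubules or, for EHD2, the necks of caveolae. Integrins and growth factor receptors are among the cargo of these routes.

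RNA of 12 samples was hybridized to 6 arrays with 2 colours each, on 2 slides. All cells carried a stable vector, a td-Tomato marker plasmid and resistance to G418, and were kept as pools of selected cells rather than single clones. Control cells had the empty vector and PIM1 cells a vector for human PIM1, a serine/threonine kinase. WT and MM cells had in addition been transiently transfected with wild-type NFATC1, a transcription factor, or with a multi mutant in which the PIM1 target serines and threonines were replaced by alanine, and PIM1 + WT and PIM1 + MM cells were PIM1 cells transfected in the same way. Whether control and PIM1 cells went through a mock transient transfection is not given in the sources used here. RNA extraction is placed on the day after transfection in the study's methods and at 48 h in its results. Each group had 2 samples, 1 on each slide. Nothing in the sources says that they were separate cultures, so that p-values measure only the spread between these samples, which may be technical. The dyes were not swapped: Cy3 marked the control, WT and PIM1 + WT samples and Cy5 the PIM1, MM and PIM1 + MM samples. In PIM1 against control, WT against MM and PIM1 + WT against PIM1 + MM, the dye and the condition cannot be told apart. PIM1 + WT against WT, PIM1 + MM against MM, WT against control and PIM1 + MM against PIM1 each lie within 1 dye, and the interaction (PIM1 + WT minus PIM1 + MM, less WT minus MM) cancels any dye bias that is constant per gene.

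In each channel, 56.9% to 69.0% of spots were well above background, and its median raw intensity ranged from 86.0 to 318. The epithelial keratins KRT8 and KRT18 were well above background in all 12 channels, while KLK3, the androgen-driven prostate antigen, was in none. The PIM1 probe had mean log2 intensities of 9.95 (control), 10.16 (WT) and 10.13 (MM), and 10.20, 9.93 and 10.29 in the same backgrounds with stable PIM1. NFATC1 had 2 probes with different patterns. The first was at 8.29, 8.28 and 8.39 in control, WT and MM cells and at 7.44, 7.19 and 7.34 in their counterparts with stable PIM1. The second was at 6.87, 7.77 and 11.29 in the former 3 groups and at 6.38, 7.97 and 11.95 in the latter. The PIM1 probe thus differed little between groups, and at the second probe NFATC1 was far higher with MM than with WT. Whether these probes lie within the transfected sequences was not tested. The study reports overexpression of PIM1 and/or NFATC1 in its cell samples by real-time qPCR, which was not analysed here.

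**Figure D1:**
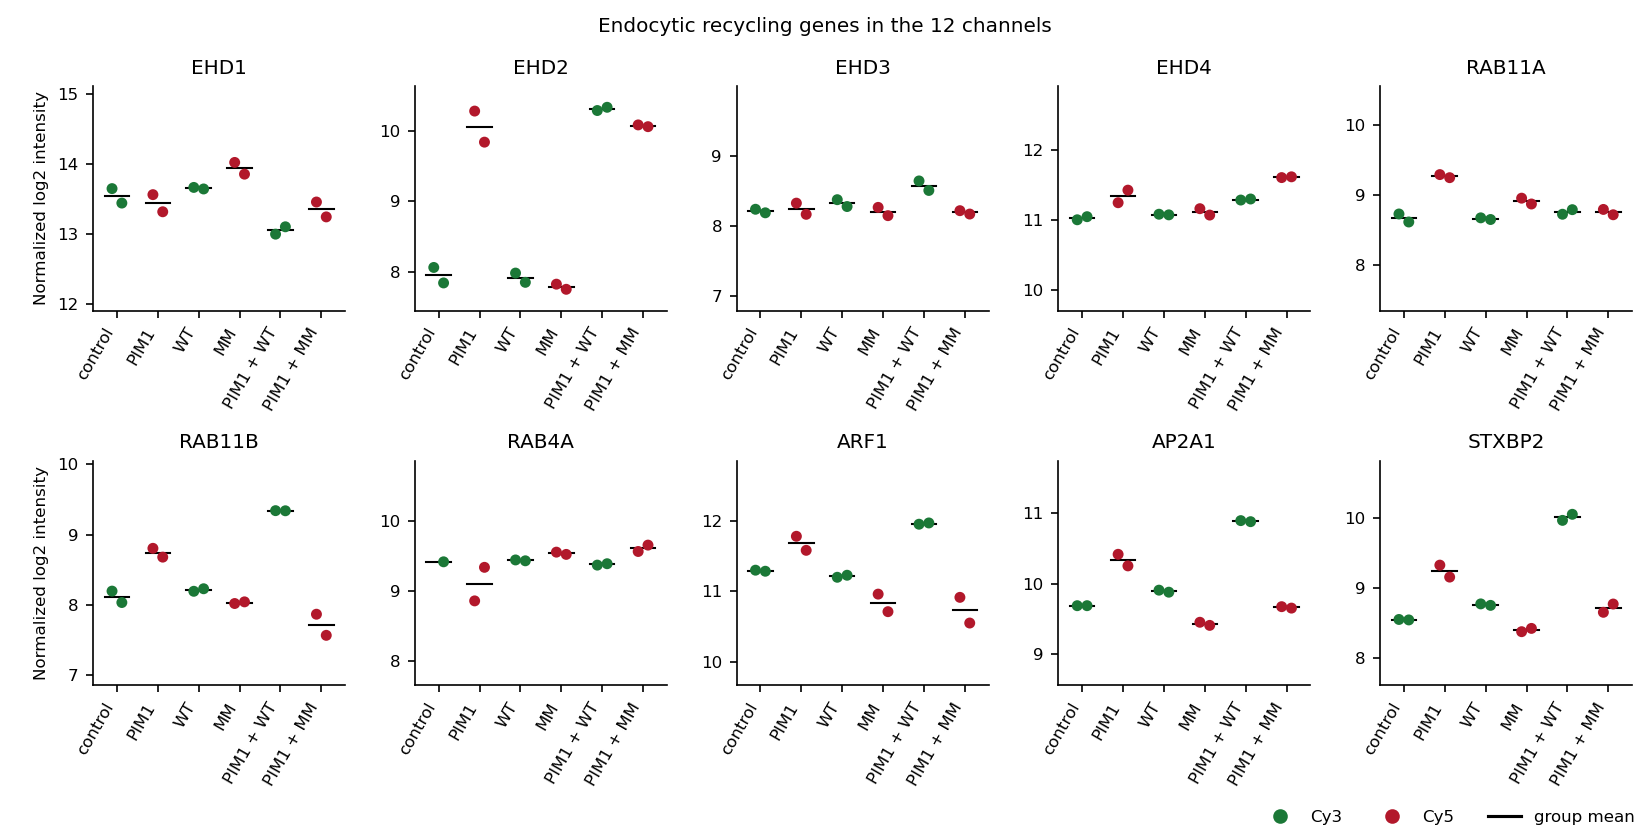
Normalized log2 intensity (vertical axis, each panel spanning the same log2 range) of the 10 genes in the 6 groups. Each point is 1 sample, green for Cy3 and red for Cy5, and lines are group means. EHD2 is high in the 3 groups with stable PIM1, and RAB11B, ARF1, AP2A1 and STXBP2 are highest in PIM1 + WT cells.

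EHD2 was high in every group with stable PIM1 and low in every group without it. Its normalized log2 intensity was 8.06 and 7.84 in the control samples, 7.98 and 7.85 in the WT samples and 7.82 and 7.75 in the MM samples. With stable PIM1 it was 10.29 and 9.84 without NFATC1, 10.29 and 10.34 with WT NFATC1 and 10.09 and 10.06 with MM NFATC1. Leaving out the control and PIM1 samples, by which the gene was chosen, samples with stable PIM1 did not overlap those without it. How many of all genes are separated in this way, or in the ways given for the other genes below, was not counted. PIM1 cells exceeded control cells by 2.12 on the log2 scale (standard error 0.131), the value by which the gene was chosen. In samples that played no part in that choice, and within a dye, PIM1 + WT cells exceeded WT cells by 2.41 (standard error 0.131, adjusted p = 5.33e-06 from limma), a 5.30-fold difference. PIM1 + MM cells exceeded MM cells by 2.29 (standard error 0.131, adjusted p = 1.03e-05 from limma), or 4.90-fold. These samples come from the same pool of PIM1 cells as far as the labels tell, and were not drawn from a second one. In raw intensity, before any scaling between channels, EHD2 read 230 and 199 in control, 228 and 195 in WT and 829 and 714 in PIM1 + WT samples, all in Cy3. In Cy5 it read 437 and 246 in MM, 1799 and 648 in PIM1 samples and 1968 and 868 in PIM1 + MM samples. The rise with stable PIM1 was thus present within each dye before normalization.

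The form of NFATC1 moved EHD2 little by comparison. WT cells differed from MM cells by 0.13 (95% interval -0.17 to 0.43, adjusted p = 0.845 from limma), and PIM1 + WT from PIM1 + MM cells by 0.24 (95% interval -0.06 to 0.54, adjusted p = 0.275). The second of these passed with the array as a fixed block (adjusted p = 0.0372 from limma) and without the array of control and PIM1 replicate 1 (adjusted p = 0.0359). The interaction was 0.11 (95% interval -0.31 to 0.53, adjusted p = 0.873). WT minus control was -0.04 and PIM1 + MM minus PIM1 was 0.01, both given with no test.

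EHD2 is known for its place at caveolae, so the coat genes of caveolae were set beside it, a choice made after its values were seen. CAV1, the main caveolin, had group means from 10.84 to 11.15, and CAV2 from 7.70 to 7.87. CAVIN1, the main coat adaptor, lay between 11.36 and 11.74 and CAVIN3 between 6.88 and 7.26, while CAVIN2 did not pass the filter. No group mean of these 4 genes lay as far from that of the control cells as the EHD2 means of the 3 groups with stable PIM1 did.

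Of the 4 endothelial markers, PECAM1 and KDR moved with EHD2, while CDH5 and VWF did so little or not at all. PECAM1, an endothelial adhesion molecule, had group means of 6.91, 6.90 and 6.96 in control, WT and MM and of 7.90, 7.80 and 7.78 in the same 3 backgrounds with stable PIM1. KDR, a receptor for vascular endothelial growth factor, was at 6.90, 7.06 and 6.98 and at 8.26, 7.997 and 7.87 in the same order. Over the 4 endothelial markers, all of which passed the filter, the mean log2 intensity ranged from 6.78 to 6.88 over the 6 samples without stable PIM1 and from 7.31 to 7.47 over the 6 with it. CDH5, the endothelial cadherin, was at 7.13, 6.96 and 7.015 and at 7.405, 7.18 and 7.32 in the same order, so that PIM1 + WT cells were close to control cells. VWF, the von Willebrand factor of endothelial granules, was well above background in 5 channels. Its group means were 6.37, 6.375 and 6.37 without and 6.27, 6.42 and 6.45 with stable PIM1, lower in PIM1 than in control cells. The part of the endothelial markers in the EHD2 result was not tested.

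Likeness to EHD2 over the 12 samples was measured by Pearson correlation among 18725 other genes with a symbol and no missing value. The genes most like it were SLC14A1 (r = 0.993), NME6 (r = 0.993), DUSP4 (r = 0.993), TFF2 (r = 0.993) and MYEOV (r = 0.992). The points share arrays, dyes and slides. TFF2, a secreted trefoil peptide, went from 10.5 in control to 13.17 in PIM1 cells, and SLC14A1, a urea transporter, from 7.68 to 8.87.

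**Figure D2:**
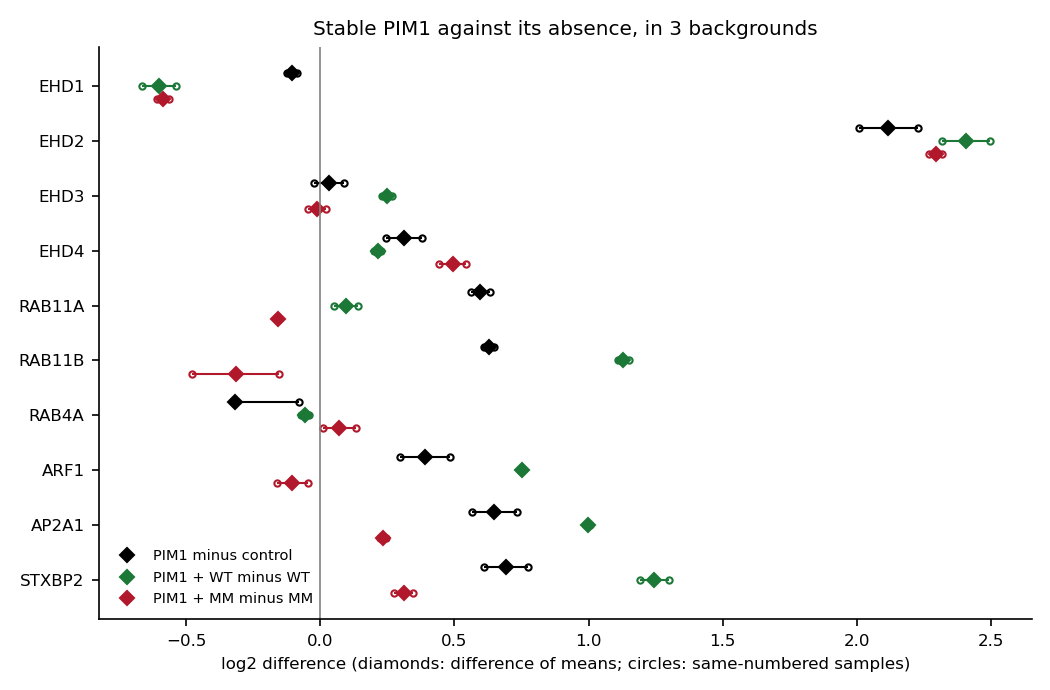
Log2 differences (horizontal axis) of the 10 genes between cells with and without stable PIM1, alone, with WT and with MM NFATC1. Diamonds are differences of group means, and open circles, joined by lines, the differences between same-numbered samples (for RAB4A minus control, replicate 2 only). EHD2 lies above 2 in all 3 comparisons, while RAB11B lies at 0.63, 1.13 and -0.31.

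The other EHD genes did not share this pattern. EHD1, which acts at the recycling endosome, was at 13.65 and 13.44 in control samples, 13.67 and 13.65 in WT samples and 14.02 and 13.86 in MM samples. With stable PIM1 it was at 13.57 and 13.32 without NFATC1, 13.00 and 13.11 with WT NFATC1 and 13.46 and 13.25 with MM NFATC1. EHD1 fell with stable PIM1 where NFATC1 had been transfected. It was lower by 0.60 on the log2 scale in PIM1 + WT than in WT cells, with a difference of -0.60 (standard error 0.112, adjusted p = 0.00353 from limma). It was also lower in PIM1 + MM than in MM cells, at -0.59 (standard error 0.112, adjusted p = 0.00635 from limma), a call lost without MM replicate 1 (-0.50, adjusted p = 0.0527). Between PIM1 and control cells the difference was -0.10 (95% interval -0.36 to 0.15, adjusted p = 0.594), and the samples overlapped. Whether the PIM1 difference of EHD1 changes with transfection was not tested. With WT against MM NFATC1, EHD1 differed by -0.28 without and -0.30 with stable PIM1, neither past the test (adjusted p = 0.346 and 0.111 from limma). The latter passed with the array as a fixed block (adjusted p = 0.0344), as a random block (adjusted p = 0.0303) and with the filter in all 12 channels (adjusted p = 0.0468).

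EHD4, which works with EHD1 on early and recycling endosomes, was higher with stable PIM1 in all 3 backgrounds. It read 11.01 and 11.05 in control and 11.25 and 11.43 in PIM1 samples, a difference of 0.31 (limma adjusted p = 0.00893, standard error 0.0687). Without control replicate 1 it no longer passed (0.29, adjusted p = 0.0553), and after centring each channel on its median the difference turned to -0.37. It read 11.16 and 11.07 in MM and 11.61 and 11.62 in PIM1 + MM samples, a difference of 0.49 (adjusted p = 0.00122 from limma). Between 11.09 and 11.08 in WT and 11.29 and 11.30 in PIM1 + WT samples the difference was 0.21 (adjusted p = 0.0462), which did not pass without any 1 of the 4 samples (adjusted p from 0.146 to 0.177) and turned to -0.07 after median centring. Adding MM NFATC1 to PIM1 cells also went with higher EHD4, by 0.27 (adjusted p = 0.0335). This call was lost without PIM1 replicate 1 (0.18, adjusted p = 0.124), without PIM1 + MM replicate 1 (adjusted p = 0.0788) and without PIM1 + MM replicate 2 (adjusted p = 0.118).

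EHD3, the closest relative of EHD1, kept a narrow range. It was at 8.24 and 8.19 in control cells, 8.33 and 8.17 in PIM1 cells, 8.38 and 8.28 in WT cells, 8.27 and 8.15 in MM cells and 8.22 and 8.17 in PIM1 + MM cells. The PIM1 + WT samples, at 8.65 and 8.51, were above all others, an order that was not counted over all genes. PIM1 + WT cells exceeded WT cells by 0.25 (standard error 0.0796, adjusted p = 0.0459 from limma), which did not pass without any 1 of these 4 samples (adjusted p from 0.0563 to 0.271). In PIM1 against control and PIM1 + MM against MM the differences were 0.03 and -0.01 (95% intervals -0.15 to 0.21 and -0.19 to 0.17).

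RAB11A, the ubiquitous RAB11, was highest in PIM1 cells without NFATC1. It read 8.73 and 8.62 in control and 9.29 and 9.25 in PIM1 samples. It was at 8.67 and 8.65 in WT, 8.95 and 8.87 in MM, 8.73 and 8.79 in PIM1 + WT and 8.79 and 8.72 in PIM1 + MM samples. PIM1 samples were above all others, and how many of all genes share this order was not counted. PIM1 cells exceeded control cells by 0.60 (standard error 0.0644, adjusted p = 0.000189 from limma), and after median centring by 0.19 (adjusted p = 0.501). Within Cy5, PIM1 + MM cells were lower than PIM1 cells, at -0.51 (adjusted p = 0.0024 from limma). With NFATC1 in both groups the PIM1 differences were 0.10 (PIM1 + WT minus WT, adjusted p = 0.345) and -0.16 (PIM1 + MM minus MM, adjusted p = 0.128).

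RAB4A, of the fast route, was read in 11 channels, since its spot was flagged as an outlier in control replicate 1 and was left out of the fit there. It was at 9.42 in control replicate 2, at 9.44 and 9.43 with WT, at 9.55 and 9.52 with MM, at 9.37 and 9.39 with PIM1 + WT and at 9.56 and 9.65 with PIM1 + MM. The PIM1 samples stood apart from each other, at 8.86 and 9.34. PIM1 minus control was -0.32 (limma adjusted p = 0.214, standard error 0.162), and -0.04 with flagged spots kept. Without PIM1 replicate 2 it was -0.56 and passed (adjusted p = 0.00308). PIM1 + MM cells exceeded PIM1 cells by 0.51 (adjusted p = 0.0422 from limma), and by 0.27 without PIM1 replicate 1 (adjusted p = 0.0595). The latter call was also lost without PIM1 + MM replicate 1 (adjusted p = 0.0821) and without PIM1 + MM replicate 2 (adjusted p = 0.167).

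RAB11B, ARF1, AP2A1 and STXBP2 were chosen by a higher level with WT than with MM NFATC1 in cells with stable PIM1, and each was highest in PIM1 + WT cells. RAB11B is the second RAB11 GTPase, ARF1 recruits coats and adaptors to membranes, AP2A1 is a large subunit of the AP-2 adaptor of clathrin-coated pits, and STXBP2 (Munc18-2) binds syntaxins in vesicle fusion. RAB11B, AP2A1 and STXBP2 lie on chromosome 19, as does EHD2. The 250 bases before the RefSeq start sites of EHD2 (chr19:47713172-47713421), RAB11B (chr19:8390110-8390359) and AP2A1 (chr19:49766751-49767000), all on the plus strand of GRCh38.p14, are shown because EHD2 and the other genes differ in their pattern and NFATC1 is the factor that was varied. Capitals mark the NFAT core GGAAA, searched on both strands (TTTCC in reverse).
EHD2: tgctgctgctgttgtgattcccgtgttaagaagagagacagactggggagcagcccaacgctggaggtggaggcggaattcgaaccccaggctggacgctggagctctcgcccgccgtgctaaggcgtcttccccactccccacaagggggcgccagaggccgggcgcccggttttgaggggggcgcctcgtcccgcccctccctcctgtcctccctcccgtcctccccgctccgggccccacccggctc
RAB11B: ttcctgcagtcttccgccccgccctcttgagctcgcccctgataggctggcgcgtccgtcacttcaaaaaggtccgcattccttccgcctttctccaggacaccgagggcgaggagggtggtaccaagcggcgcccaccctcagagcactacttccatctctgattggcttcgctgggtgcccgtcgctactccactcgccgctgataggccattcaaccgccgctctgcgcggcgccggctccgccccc
AP2A1: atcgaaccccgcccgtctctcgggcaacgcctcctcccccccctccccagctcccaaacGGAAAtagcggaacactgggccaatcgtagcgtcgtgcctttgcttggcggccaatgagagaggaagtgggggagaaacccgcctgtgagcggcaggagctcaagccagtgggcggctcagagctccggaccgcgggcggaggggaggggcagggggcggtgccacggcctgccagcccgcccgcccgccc
The AP2A1 window held 1 match, beginning at position -191 from the start site, and the EHD2 and RAB11B windows held none. Of the 14 windows of the 10 genes, 5 held a match, and of all 35116 windows of this length 55.6% did. The GC content of the 14 windows had a median of 70.2%, compared with 58.0% over all windows. These are descriptions of letters in a window, and nothing about binding was measured.

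RAB11B read 8.19 and 8.03 in control, 8.80 and 8.68 in PIM1 samples, 8.19 and 8.23 in WT and 8.02 and 8.04 in MM samples. In cells with both, it read 9.34 and 9.34 in PIM1 + WT and 7.86 and 7.56 in PIM1 + MM samples. PIM1 + WT samples were thus the highest of all and PIM1 + MM samples the lowest, with the groups apart. The PIM1 + WT minus PIM1 + MM difference was 1.63 on the log2 scale (standard error 0.0989), which chose the gene, and the interaction that includes it was 1.44. In samples that did not choose it, PIM1 cells exceeded control cells by 0.63 (standard error 0.0989, adjusted p = 0.00149 from limma), or by 0.31 after median centring (adjusted p = 0.217), and WT differed from MM cells by 0.18 (adjusted p = 0.558). Raw RAB11B intensities were 422 and 356 in PIM1 + WT and 407 and 209 in PIM1 + MM samples. The size of this difference therefore depends on the scaling between channels. Median raw intensities of the channels were 102 and 86.0 for PIM1 + WT and 292 and 192 for PIM1 + MM samples. Under the alternatives run, the difference lay between 1.48 and 1.81. The part of the dyes in it was not tested.

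ARF1 read 11.30 and 11.29 in control, 11.79 and 11.59 in PIM1 samples, 11.20 and 11.23 in WT and 10.96 and 10.71 in MM samples. It read 11.96 and 11.98 in PIM1 + WT and 10.92 and 10.55 in PIM1 + MM samples, so that samples with MM were the lowest whether or not PIM1 was present. PIM1 + WT minus PIM1 + MM was 1.23, the value that chose it. Raw ARF1 intensities were 2554 and 2192 in PIM1 + WT and 3515 and 1192 in PIM1 + MM samples. Before scaling, ARF1 was thus lower in PIM1 + WT in replicate 1, so that this difference depends on the scaling too. It was 0.997 with the processed signal and 1.53 after median centring. PIM1 cells exceeded control cells by 0.39 (standard error 0.124, adjusted p = 0.0475 from limma). That call was lost without control replicate 1 (adjusted p = 0.135), control replicate 2 (adjusted p = 0.151) or PIM1 replicate 1 (0.29, adjusted p = 0.203), and the difference turned to -0.30 after median centring. WT minus MM was 0.38 and did not pass (adjusted p = 0.241).

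AP2A1 and STXBP2 had the narrowest spread of these 4 genes. AP2A1 read 9.68 and 9.68 in control, 10.42 and 10.25 in PIM1 samples, 9.91 and 9.88 in WT, 9.45 and 9.40 in MM, 10.90 and 10.88 in PIM1 + WT and 9.67 and 9.65 in PIM1 + MM samples. STXBP2 read 8.56 and 8.55 in control, 9.33 and 9.16 in PIM1 samples, 8.78 and 8.76 in WT, 8.38 and 8.43 in MM, 9.97 and 10.05 in PIM1 + WT and 8.66 and 8.78 in PIM1 + MM samples. For both genes PIM1 + WT samples were above all others and MM samples below all others. PIM1 cells exceeded control cells in AP2A1 by 0.65 (standard error 0.0637, adjusted p = 0.000115 from limma) and in STXBP2 by 0.69 (standard error 0.0728, adjusted p = 0.000166), which became 0.08 and 0.29 after median centring (adjusted p = 0.806 and 0.258). AP2A1 was also higher in WT than in MM cells without stable PIM1, by 0.47 (adjusted p = 0.0229 from limma). This did not pass without any 1 of the 4 samples (adjusted p from 0.133 to 0.253). STXBP2 differed by 0.36 there and did not pass (adjusted p = 0.0646), but did in 4 alternatives, such as the array as a random block (adjusted p = 0.0097). PIM1 + WT minus PIM1 + MM, which chose them, was 1.23 and 1.29. Raw AP2A1 intensities were 1251 and 1046 in PIM1 + WT and 1451 and 658.5 in PIM1 + MM samples. Those of STXBP2 were 654.5 and 589 in PIM1 + WT and 711.5 and 388 in PIM1 + MM samples. In replicate 1 both genes were thus lower in PIM1 + WT before scaling between channels, on which these differences depend as well. After median centring they were 1.55 for AP2A1 and 1.56 for STXBP2.

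**Figure D3:**
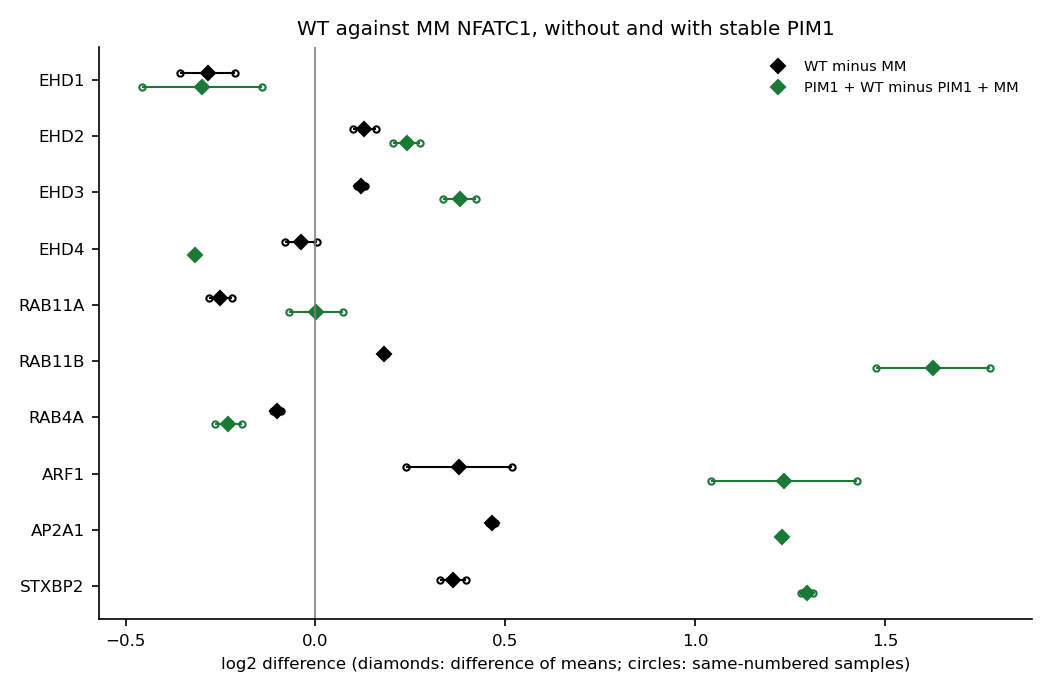
Log2 differences (horizontal axis) of the 10 genes between WT and MM NFATC1, without and with stable PIM1. Diamonds are differences of group means and open circles, joined by lines, those between same-numbered samples. RAB11B, ARF1, AP2A1 and STXBP2, chosen by the second comparison, lie between 1.23 and 1.63 in it and between 0.18 and 0.47 in the first.

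Of the genes not chosen by the comparison of PIM1 + WT with PIM1 + MM, EHD3 was the one to rise with WT NFATC1, by 0.38 (adjusted p = 0.0121 from limma, standard error 0.0796), and EHD4 fell, at -0.32 (standard error 0.0687, adjusted p = 0.014). The EHD3 call was lost without PIM1 + WT replicate 1 (0.31, adjusted p = 0.105) or PIM1 + MM replicate 2 (0.36, adjusted p = 0.0655). The EHD4 call was lost without PIM1 + WT replicate 1 (adjusted p = 0.0903), PIM1 + WT replicate 2 (adjusted p = 0.073) or PIM1 + MM replicate 2 (adjusted p = 0.0624), and EHD4 differed by -0.19 after loess and -0.01 after median centring.

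Place on the array mattered for ARF1 and RAB11B. Over all probes, PIM1 + WT minus PIM1 + MM was raised near the start of the array in replicate 2, with medians over 4 rows of 0.36 in rows 9 to 12, 0.45 in rows 13 to 16 and 0.24 in rows 29 to 32. It was at -0.05 in rows 1 to 4, as over most of the array, and still at 0.12 in rows 33 to 36 and 0.15 in rows 37 to 40. The ARF1 spot is in row 13, where probes within 3 rows on each side had a median PIM1 + WT minus PIM1 + MM difference of 0.00 in replicate 1 and 0.26 in replicate 2. ARF1 itself differed by 1.04 and 1.43. The RAB11B spot is in row 35, where the rise was smaller, and its neighbours had medians of 0.00 and 0.10, while RAB11B differed by 1.48 and 1.78. Without PIM1 + MM replicate 2, and so without that channel, RAB11B differed by 1.48 and ARF1 by 1.05. STXBP2 in row 108 (1.31 and 1.28) and AP2A1 in row 258 (1.23 and 1.23) lie far from that region, and the part of place in the values of ARF1 and RAB11B was not tested beyond this.

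**Figure D4:**
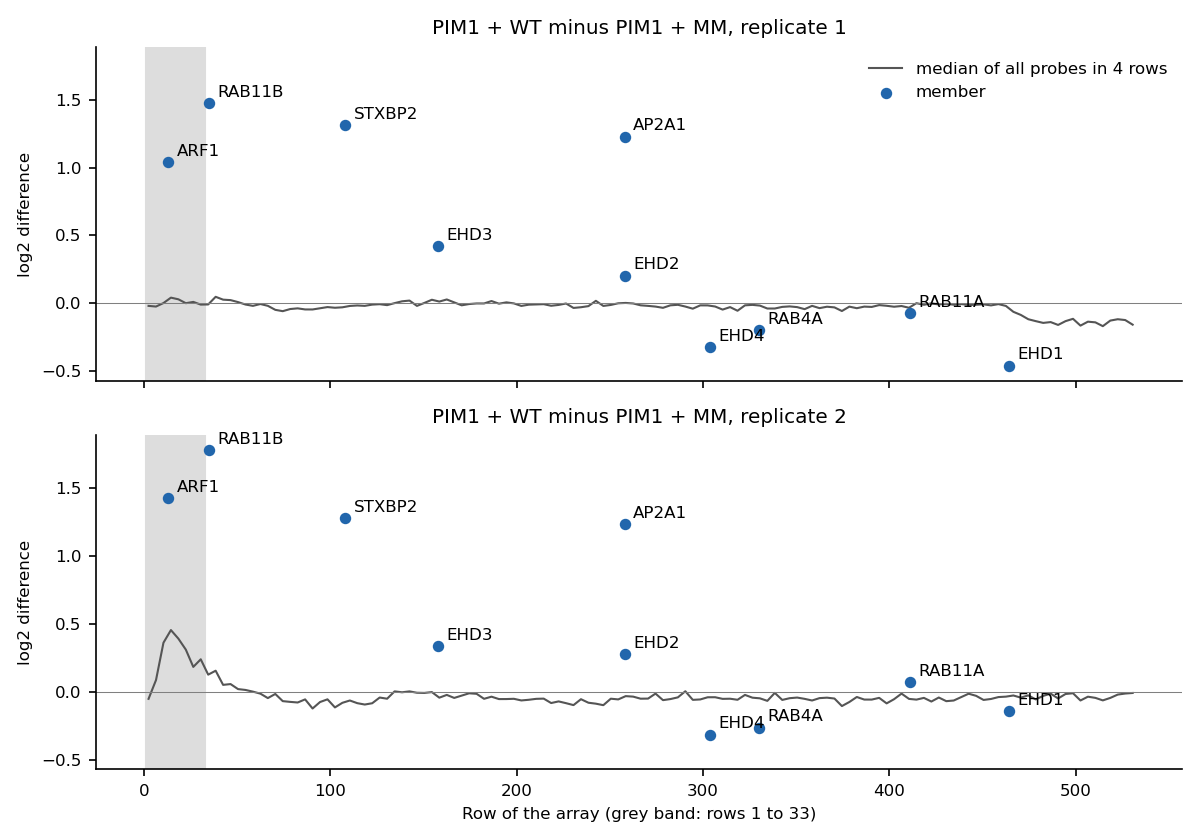
PIM1 + WT minus PIM1 + MM log2 difference (vertical axis) by row of the array (horizontal axis) in replicates 1 and 2. Blue points are the 10 genes, the line is the median over all probes in 4 rows, and the grey band marks rows 1 to 33. In replicate 2 the line reaches 0.45 within the band, below ARF1 at 1.43 in row 13.

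Counts over the 10 genes read as follows against all 25471 genes. Between PIM1 and control cells, 9 were tested, of which 6 rose and 0 fell, compared with 12.7% of all genes higher and 12.5% lower. Between PIM1 + WT and WT cells 3 of 6 rose and 1 fell (13.4% and 14.1% of all genes), and between PIM1 + MM and MM cells 2 of 6 rose and 1 fell (10.0% and 9.40%). Between PIM1 + MM and PIM1 cells 2 of 5 were higher and 1 lower (5.20% and 7.17%). For the form of NFATC1, 1 of 10 was higher in WT than in MM cells (0.546% and 0.247%), and with stable PIM1 1 of 6 was higher and 1 lower with WT (8.55% and 7.57%). The interaction passed in limma for 0 of 6 genes (1.71% of all genes higher and 0.503% lower), and 3 of the 6 had an unadjusted p below 0.05, as did 16.0% of all genes. With the array as a random block EHD4 passed there, at -0.28 (adjusted p = 0.0489). Between WT and control cells it was 0 of 9 (0.0785% and 0.126%), and 2 of the 9 had an unadjusted p below 0.05, as did 10.7% of all genes. The share of higher calls moved with the scaling over all genes. In PIM1 + WT minus PIM1 + MM it was 53.0% of 4108 calls, 83.9% of 3514 after loess and 95.2% of 21 after median centring. In the interaction it was 77.3% and after loess 91.9%, and in PIM1 + WT minus WT it was 48.8%, 59.1% after loess and 34.6% after median centring. In WT minus control it was 38.5% of 52 calls, and 23.8% of 42 with the processed signal. After median centring the median of all genes was 0.13 in PIM1 minus control (0.01 before), -0.11 in PIM1 + WT minus PIM1 + MM (-0.03 before) and 0.14 in PIM1 + WT minus WT (-0.0039 before).

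Among 149 other genes of the pathway, sorted into 7 lists, 146 were tested, and RAB5C, RAB11FIP4 and DENND4C were not. Between PIM1 and control cells 41 rose and 20 fell, with a median of 0.03 against 0.01 over all genes. Over all genes, 12.7% were called higher and 12.5% lower there, and the lists were not tested against these shares. Recycling cargo receptors had the largest share of calls of the 7 lists, with 9 of 15 higher and 2 lower. In this comparison the dye and the condition cannot be told apart. Median centring took the calls over all lists from 61 to 27. B2M, the light chain of MHC class I, rose by 0.83 (adjusted p = 2.39e-05 from limma), while the growth factor receptor EGFR fell, at -0.34 (adjusted p = 0.0135). EGFR was dim, with mean log2 intensities of 6.51 in PIM1 and 6.85 in control cells, below the channel medians near 7.37. Of 28 syntaxins and their partners 8 rose and 1 fell. VAMP8, an endosomal SNARE, rose by 1.85 (standard error 0.0796, adjusted p = 1.71e-06 from limma), and STX2, a plasma membrane syntaxin, fell by 1.29 on the log2 scale. Of 27 recycling GTPases and effectors 5 rose and 8 fell, with RAB4B at 0.69, the early endosome GTPase RAB5A at 0.68 and the vesicle motor MYO5A at -1.24.

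The remaining lists read as follows in PIM1 minus control, where 12.7% of all genes were called higher and 12.5% lower. Of 25 EHD partners and tubule formers 4 rose and 5 fell, with the retromer subunit VPS26A at 0.54 and the sorting nexin SNX5 at -0.86. Of 17 ARF GTPases and regulators 6 rose and 2 fell, with the ARF GTPase-activating proteins ACAP2 at 0.75 and ARFGAP2 at -0.62. Of 25 AP-2 and clathrin coat genes 6 rose and 2 fell, with the AP-2 subunit AP2M1 at 0.51 and EPS15L1 at -0.50. Of 9 exocyst subunits, which tether recycling vesicles to the plasma membrane, 3 rose and 0 fell, with EXOC8 at 0.44 and EXOC1 at 0.29.

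With WT against MM NFATC1 in cells with stable PIM1, 21 of the 146 genes were higher and 15 lower, with a median of -0.06 against -0.03 over all genes. Over all genes, 8.55% were called higher and 7.57% lower there, and the lists were not tested against these shares. Among the 146, the genes with the largest rises belonged to several of the lists. MICALL1, the tubule scaffold that binds EHD1, was higher by 0.77 (standard error 0.0815, adjusted p = 0.000381 from limma), and PACSIN3, a membrane-bending EHD partner, by 0.79 (adjusted p = 0.0291). DNM2, the dynamin that cuts vesicles free, was higher by 0.74 (adjusted p = 0.000101 from limma) and the clathrin uncoating kinase GAK by 0.62. NAPA, which helps to disassemble SNARE complexes, was higher by 0.76 and the vesicle priming factor UNC13D by 0.68. Of those lower, RAB22A, an endosomal Rab, was at -0.41, the retromer subunit VPS29 at -0.35 and the receptor MET at -0.35. For the exocyst 0 of 9 genes passed in limma. The interaction passed for 2 of the 146 genes, DNM2 (0.41, adjusted p = 0.0439 from limma) and the integrin subunit ITGB1 (0.47, adjusted p = 0.0247). Of all genes, 1.71% passed it as higher and 0.503% as lower.

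The remaining comparisons gave 4 genes higher and 3 lower in WT than in MM cells (0.546% and 0.247% of all genes). In limma, 0 and 0 passed in WT against control cells (0.0785% and 0.126% of all genes). There, 16 of the 146 had an unadjusted p below 0.05, against 10.7% of all genes. PIM1 + WT against WT gave 29 and 23 (13.4% and 14.1% of all genes). PIM1 + MM gave 17 and 19 against MM (10.0% and 9.40%) and 10 and 24 against PIM1 (5.20% and 7.17%). The counts were not tested against these shares. Values of the pathway genes within each dye are set side by side in the plot of stable PIM1 with WT against stable PIM1 with MM.

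**Figure D5:**
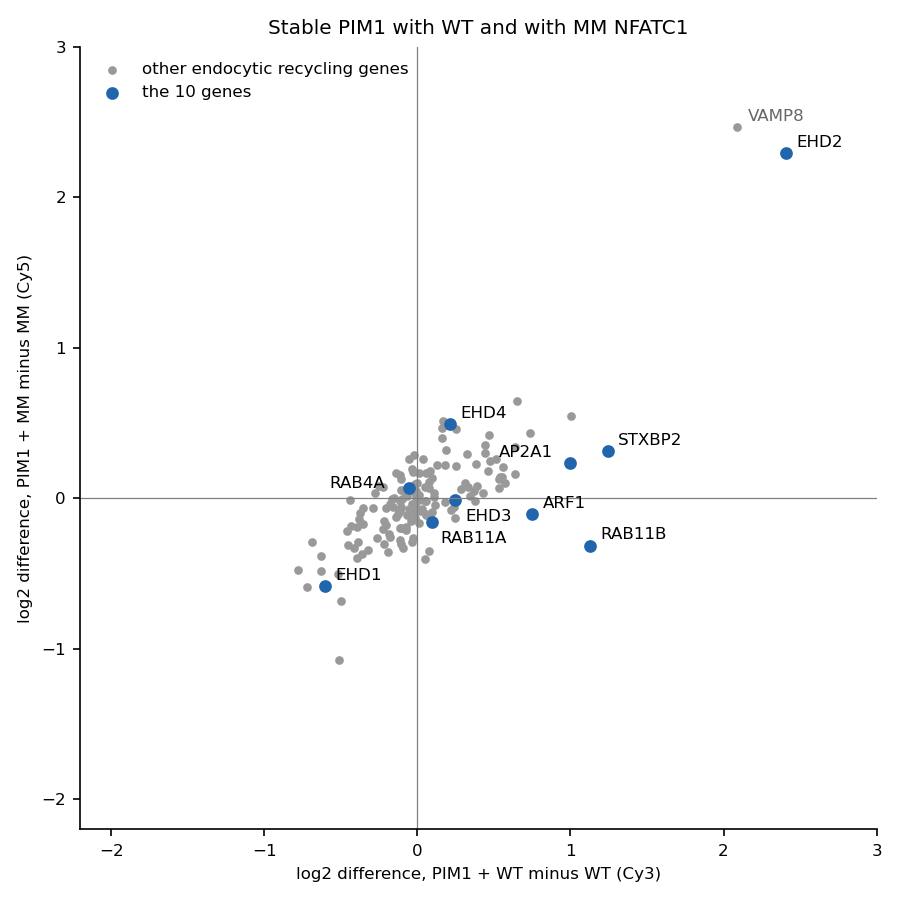
Log2 differences of stable PIM1 with WT NFATC1 (horizontal axis, within Cy3) and with MM NFATC1 (vertical axis, within Cy5) for the 10 genes (blue) and 146 other endocytic recycling genes (grey). EHD2, at 2.41 and 2.29, lies beside VAMP8, while RAB11B lies at 1.13 and -0.31.

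The genes most like RAB11B over the 12 samples were PLXNB2 (r = 0.991), STIP1 (r = 0.984), MYL9 (r = 0.983), MEN1 (r = 0.982) and CAPN1 (r = 0.981), again among 18725 genes. The calpain CAPN1 had group means of 10.07 (control), 10.62 (PIM1), 11.04 (PIM1 + WT) and 9.90 (PIM1 + MM). EHD3, AP2A1, ARF1 and STXBP2 correlated with RAB11B at 0.803, 0.943, 0.945 and 0.913, the last 3 having been chosen by the same comparison.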

How the data were processed

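Per the labels, each array held 1 sample in Cy3 and 1 in Cy5, so the channel of its dye gave the values of a sample. The authors deposited the raw intensity of each spot (median signal) from Agilent Feature Extraction 11.0.1.1, and log2 values per spot, which a check against quantile-normalized median signals matched to within 0.0844. Outlier spots were left out, no background was subtracted, and 31484 of 34127 probes were kept, those above the 90th percentile of the 153 negative controls in at least 2 of 12 channels. Values were log2 transformed, quantile normalized and taken as the median per gene symbol, through RefSeq transcripts (26377 probes). Differences were fitted with limma 3.58.1 (R 4.3.3) over all 12 samples with a mean for each group. Genes passed at a Benjamini-Hochberg adjusted p below 0.05 over all 25471 genes of a comparison. The fit was tested on simulated data.

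The members, the gene lists and the tests were chosen with earlier results of these data known. Genes named beside the members were, per list, the 2 with the largest difference in each direction among those past the threshold and of 1 sign in both replicates, in PIM1 minus control, PIM1 + WT minus PIM1 + MM and the interaction, of which a part is printed, the 5 genes most like EHD2 and RAB11B, PIM1, NFATC1 and 2 epithelial markers. The other markers and the caveola genes are named outside that rule. Marker lists were epithelial, prostate luminal, fibroblast, leukocyte and endothelial. Mean log2 intensity over the list was 11.02 to 11.26, 7.45 to 7.73, 6.72 to 6.88 and 6.69 to 6.85 for all but the endothelial list. Alternatives were normexp background correction (offset 50), loess with Aquantile, median centring, the processed signal, the deposited log2 values, no filter or one in all 12 channels, flagged spots retained, the brightest probe, the replicate, the array as a fixed or random block, only the groups compared, rows 1 to 33 left out, and samples or the array of control and PIM1 replicate 1 left out. Where 1 sample of a group remained, its spread was taken to equal that of other groups. The number of arrays limits the precision.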

Additional observations from a re-analysis of the deposited data

Results flagged for a closer look

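Stable PIM1 went with differences of opposite sign in different backgrounds for 4 of the genes, with both same-numbered pairs of samples on the same side of 0 in each comparison named. The differences between these comparisons were not tested as such for the members, other than in the interaction. RAB11A was 0.596 (PIM1 minus control) and 0.0957 (PIM1 + WT minus WT) against -0.157 (PIM1 + MM minus MM). RAB11B was 0.628 and 1.13 against -0.315, and ARF1 0.391 and 0.75 against -0.104, in the same order. For RAB11B and ARF1 both comparisons with NFATC1 share samples with the one that chose these genes. RAB4A was -0.0576 with WT and 0.0709 with MM NFATC1, both within their standard error of 0.132. The ARF1 value of -0.104 also lay within its standard error of 0.124. It turned to 0.079 with the first 40 rows left out of PIM1 + MM replicate 2. The RAB11A value of -0.157 did not pass (adjusted p = 0.128 from limma). How many of all genes meet the same sign rule was not counted.

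The stable PIM1 effect differed by the form of NFATC1, by the interaction in limma, for 2 of the 146 other recycling genes. Of all genes, 1.71% were called higher and 0.503% lower there, so the count does not set the recycling genes apart. DNM2 differed by 0.406 (adjusted p = 0.0439) and ITGB1 by 0.465 (adjusted p = 0.0247), in 2 of 2 same-numbered pairs each.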

How the results depend on the processing

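The rise of EHD2 with stable PIM1 kept its direction and passed under every alternative run, between 2.34 and 2.84 with WT and between 2.09 and 2.71 with MM NFATC1. Centring each channel on its median turned 3 called differences around: EHD4 to -0.375 and ARF1 to -0.296 in PIM1 minus control, and EHD4 to -0.0673 in PIM1 + WT minus WT. Changes of sign in differences past the threshold in neither fit were not counted. Of 19 calls on members it ended 14 and kept the 2 on EHD2. Only the groups compared ended 6, normexp and the processed signal 4 each, loess 3, flagged spots kept 2, the array of control and PIM1 replicate 1 left out 2 and the deposited values 1. Calls on members were gained too, 4 with the array as a fixed block and 4 as a random block, 3 with the filter in all 12 channels, 3 without the array of control and PIM1 replicate 1 and 1 with median centring. The cause was not tested. With RAB11B, row 35, left out of PIM1 + MM replicate 2 together with the first 40 rows, an alternative chosen after seeing the data, PIM1 + WT minus PIM1 + MM was 1.48. With rows 1 to 33 left out of every channel ARF1 has no value. Each group has 2 samples, so no call on a member was tested against more than that.

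The count of other recycling genes past the threshold depended on the setting. From 61 in PIM1 minus control it went to 27 with median centring and 29 with only the groups compared. From 7 in WT minus MM it went to 3 with normexp and 3 with the processed signal, 0 with median centring and 0 with only the groups compared, 11 with the filter in all 12 channels and 21 with the array as a random block. From 36 in PIM1 + WT minus PIM1 + MM it went to 0 with median centring, 55 with the filter in all 12 channels, and 58 and 66 with the array as a fixed and a random block (within a dye, groups lie on different arrays and the fixed block gives no value). From 2 in the interaction it went to 1 with normexp, 9 with loess, 0 with median centring, 8 with the filter in all 12 channels, 8 and 24 with the array as a fixed and a random block, 7 with only the groups compared and 7 without the array of control and PIM1 replicate 1. From 0 in WT minus control it went to 1 with loess. From 52 in PIM1 + WT minus WT it went to 2 with median centring. From 34 in PIM1 + MM minus PIM1 and 36 in PIM1 + MM minus MM it went to 0 and 1 with median centring, and to 0 and 15 with only the groups compared. Without 1 sample it was 0 in WT minus MM, 12 to 53 in PIM1 + WT minus PIM1 + MM, 0 to 7 in the interaction, 16 to 36 in PIM1 + MM minus PIM1 and 21 to 42 in PIM1 + MM minus MM, the array of control and PIM1 replicate 1 counted as well. The replicate block, where the replicate is also the slide, gave 4 in the interaction and changed no call on a member. Same-numbered samples share only a number and a slide.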
